A study of Sus scrofa with 19 samples.

Results

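The transcripts of 5 genes of the cellular response to low oxygen were followed in the endometrium of gilts: HIF1A, ADM, PGK1, PDK1 and LDHA. Their probes were found by the RefSeq accession listed for each probe on the array, and had to be well above local background on at least 4 of 19 arrays. The search gave 12 probes of the 39095 tested, and 5 of the 3010 named genes. HIF1A had 2 probes, ADM had 1, PGK1 had 6, PDK1 had 2 and LDHA had 1. All 12 were well above background on all 19 arrays, so no probe lay near the limit. The genes were chosen with their differences from control gilts already known. Those differences are therefore given as descriptions, and only comparisons between the horns of a gilt are given with a p-value for these genes.

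The tissue was the lining of the uterus of crossbred pigs aged 8 months. In all animals, both uterine horns had been surgically cannulated on day 8 or 9 of the cycle. On days 11 and 12, fluid was infused at 4-h intervals during 24 h. Control gilts (4 animals, 8 arrays) received vehicle, 5 mL of saline with 1% ethanol, in both horns. Their horns are marked L or P, with 4 arrays each, and the labels do not explain the marks. In each treated gilt, a horn drawn at random received 200 µg of prostaglandin E2 (PGE2) together with 33.3 µg of estradiol (E2) at each infusion (6 arrays, hormone horns). The opposite horn received vehicle (5 arrays, placebo horns). Gilt 40 is represented by its hormone horn alone. That horn is marked L, the other 5 hormone horns are marked P, and all 5 placebo horns are marked L. A placebo horn belongs to an animal that was given hormones in its other horn, so it is not the same control as a horn of a control gilt. No agent was infused alone in these groups, so the parts of PGE2 and of estradiol cannot be told apart.

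Hypoxia-inducible factor is a transcription factor made of an oxygen-regulated alpha subunit, encoded by HIF1A among others, and a stable beta subunit. The alpha subunit is mostly controlled at the protein level: it is degraded when oxygen is plentiful and accumulates when oxygen falls, although its transcript can change as well. Accumulated factor raises transcription of glycolytic enzymes such as PGK1 and LDHA, of PDK1, which holds pyruvate back from the mitochondria, and of ADM, which encodes the vasodilator peptide adrenomedullin. In the uterus, adrenomedullin is known as a peptide of blood vessels, epithelium and the early pregnancy environment.

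Between 79.1% and 88.44% of the probes on an array were well above background, and no member probe was flagged as an outlier or saturated. EPCAM, CDH1 and KRT8, markers of epithelium, and DCN and COL1A2, markers of stroma, were well above background on all 19 arrays, so both main compartments of the endometrium were present. Marker genes of immune cells set some arrays apart. The median of 5 neutrophil genes, taken above its control mean, ranged from -0.90 to 0.57 in control horns, from -0.75 to 7.67 in placebo horns and from 2.05 to 6.80 in hormone horns. The median of 9 macrophage genes ranged from -0.38 to 0.34, from 0.17 to 2.74 and from 0.24 to 2.50, and was highest in gilt 47 in both of its horns. None of the 4 red blood cell genes looked for was measured. These are whole-tissue samples, in which more cells of a type and more RNA per cell cannot be told apart.

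Levels are given as log2 of the signal minus log2 of the 75th percentile of the same array. A value of 0 is as bright as that percentile, and 1 unit is a 2-fold change. Signals of different probes depend on the probe, so levels are compared between samples of 1 gene and not between genes. A gene with several probes is represented by the brightest.

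ADM stood furthest above the control gilts. In the L horns of control gilts 9, 14, 28 and 46 its level was 0.60, 1.42, 0.96 and 3.25, and in their P horns it was 0.84, 1.62, 2.09 and 1.74. In the placebo horns of gilts 36, 38, 41, 44 and 47 it was 2.68, 3.43, 3.91, 2.60 and 4.35. In the 6 hormone horns it ran from 2.70 in gilt 36 through a median of 4.10 to 6.02 in gilt 40. Control gilts, with their horns averaged, had a mean of 1.56 ± 0.73 (SD, n = 4), placebo horns 3.39 ± 0.76 (n = 5) and hormone horns 4.13 ± 1.10 (n = 6). The groups were not fully separate: the L horn of gilt 46, at 3.25, lay above the placebo horns of gilts 36 and 44 and the hormone horn of gilt 36. The other 7 control horns all lay below every horn of a treated gilt. The fitted difference from control gilts was 2.57 ± 0.54 (SE) for hormone horns, a 5.93-fold higher signal, and 2.03 ± 0.55 for placebo horns, or 4.09-fold. Among all probes, the first of these differences ranked 103 of 39091 from the top.

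PGK1, which encodes the glycolytic enzyme phosphoglycerate kinase, was higher in both horns of treated gilts. Control L horns of gilts 9, 14, 28 and 46 had levels of 3.24, 3.26, 3.27 and 3.37, and P horns had 3.27, 3.27, 3.28 and 3.55. Placebo horns of gilts 36, 38, 41, 44 and 47 had 3.72, 3.91, 3.81, 3.85 and 4.63. Hormone horns ran from 3.59 in gilt 38 through a median of 4.24 to 4.70 in gilt 44. Control gilts were close together, with a mean of 3.31 ± 0.10 (SD, n = 4), and every horn of a treated gilt lay above every control horn, if by only a small step for gilt 38. At 2 of the 6 PGK1 probes the hormone horn of gilt 38 lay below the highest control horn, at 2.88 against 2.98 and 2.65 against 2.69. Placebo horns averaged 3.98 ± 0.37 (n = 5) and hormone horns 4.21 ± 0.36 (n = 6). Fitted differences from control gilts were 0.90 ± 0.19 (SE, 1.87-fold) in hormone horns and 0.67 ± 0.20 (1.60-fold) in placebo horns. The 6 probes of PGK1 pointed the same way, from 0.80 to 1.37 in hormone horns and from 0.66 to 1.18 in placebo horns. The 2 dimmest probes gave the 2 largest differences.

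LDHA encodes the lactate dehydrogenase subunit that favours the making of lactate from pyruvate. Control L horns had levels of 1.51, 1.86, 1.61 and 2.22 in gilts 9, 14, 28 and 46, and P horns had 1.53, 1.87, 1.49 and 2.53. Placebo horns of gilts 36, 38, 41, 44 and 47 had 2.05, 2.58, 3.18, 2.34 and 4.10. Hormone horns ran from 2.25 in gilt 38 through a median of 2.86 to 3.70 in gilt 47. Gilt 46 was again the highest control animal, and its P horn lay above 1 hormone horn and 2 placebo horns. Control gilts averaged 1.83 ± 0.40 (SD, n = 4), placebo horns 2.85 ± 0.82 (n = 5) and hormone horns 2.92 ± 0.51 (n = 6). The fitted differences from control gilts were nearly alike, 1.09 ± 0.29 (SE, 2.13-fold) in hormone horns and 0.99 ± 0.30 (1.99-fold) in placebo horns.

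PDK1 encodes a kinase that switches off pyruvate dehydrogenase and so the entry of pyruvate into the citric acid cycle. Control L horns of gilts 9, 14, 28 and 46 had levels of -2.18, -1.84, -2.07 and -1.87, and P horns had -1.80, -2.09, -1.91 and -1.92. Placebo horns of gilts 36, 38, 41, 44 and 47 had -1.33, -1.71, -1.43, -2.10 and -0.97. Hormone horns ran from -1.31 in gilt 44 through a median of -1.17 to -0.80 in gilt 47. All 6 hormone horns lay above all 8 control horns, while the placebo horn of gilt 44 lay among the controls. Control gilts averaged -1.96 ± 0.04 (SD, n = 4), placebo horns -1.51 ± 0.42 (n = 5) and hormone horns -1.11 ± 0.21 (n = 6). PDK1 thus had a stepped order, with fitted differences from control gilts of 0.45 ± 0.17 (SE, 1.36-fold) in placebo horns and 0.85 ± 0.16 (1.80-fold) in hormone horns. Its second probe gave 0.63 and 1.03.

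HIF1A had another order than the other 4 genes, with its highest levels in the placebo horns. Control L horns of gilts 9, 14, 28 and 46 had levels of -0.04, -0.23, 0.07 and 0.21, and P horns had -0.58, -0.03, -0.34 and 0.23. Placebo horns of gilts 36, 38, 41, 44 and 47 had 0.71, 0.48, 0.62, 1.63 and 1.46. Hormone horns ran from -0.24 in gilt 40 through a median of 0.30 to 1.08 in gilt 47. All 5 placebo horns lay above all 8 control horns, whereas 3 of the 6 hormone horns lay within the control range. Control gilts averaged -0.09 ± 0.22 (SD, n = 4), placebo horns 0.98 ± 0.53 (n = 5) and hormone horns 0.33 ± 0.46 (n = 6). The fitted difference from control gilts was 1.01 ± 0.25 (SE, 2.01-fold) in placebo horns and 0.42 ± 0.24 (1.33-fold) in hormone horns. The second HIF1A probe gave the same order with a smaller step, 0.66 ± 0.23 and 0.38 ± 0.23, and 2 of the 5 placebo horns overlapped the controls there.

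**Figure D1:**
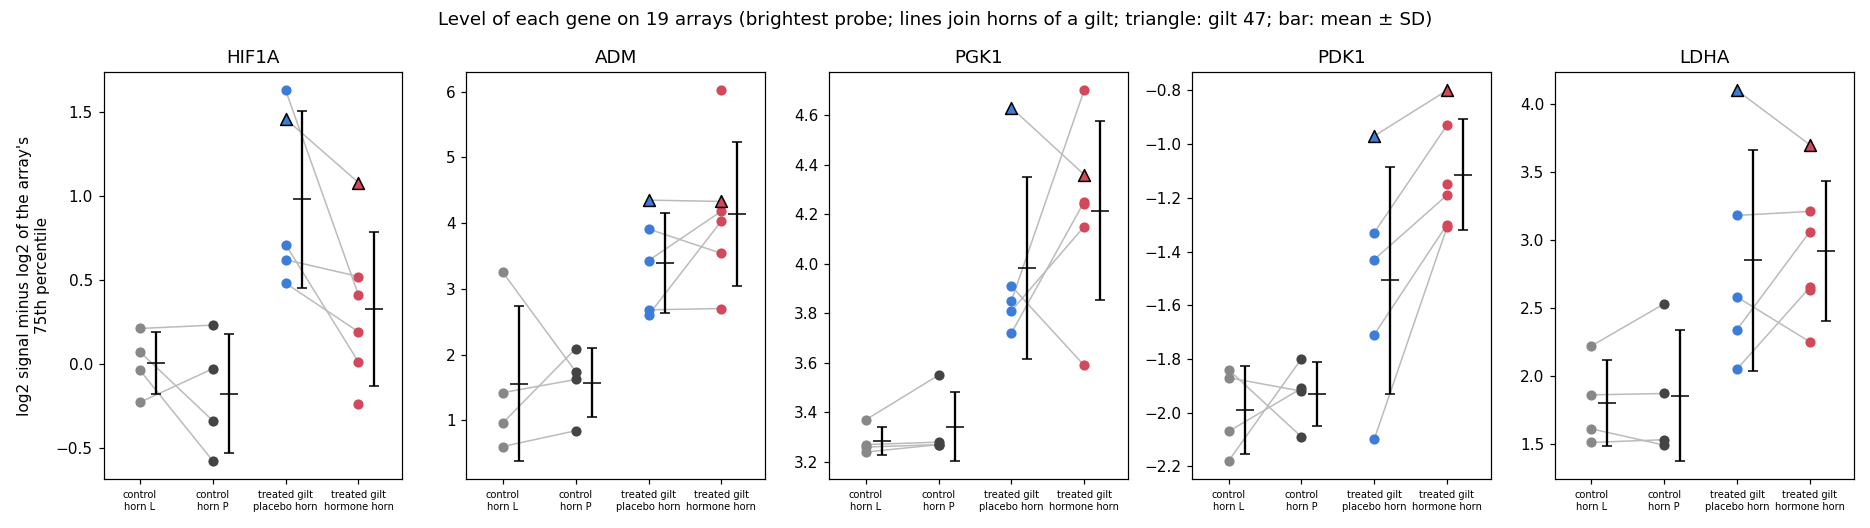
Level of HIF1A, ADM, PGK1, PDK1 and LDHA on each of 19 arrays, as log2 signal minus log2 of the array's 75th percentile, with 1 panel per gene and its own vertical scale. Points are arrays in the 4 groups, grey lines join the horns of a gilt, triangles mark gilt 47 and black bars give the mean ± SD. PGK1 in treated gilts lies above all control horns, HIF1A is highest in placebo horns and PDK1 climbs from placebo to hormone horn in all 5 gilts.

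Counted by limma's moderated test with Benjamini-Hochberg adjustment over all probes (adjusted p under 0.05), 4 of 5 genes and 10 of 12 probes were called higher in hormone horns than in control gilts, HIF1A being the exception. Over all probes, 6.72% were called higher in this comparison, and 12.7% of 3009 named genes were. In placebo horns, 2 of 5 genes, HIF1A and ADM, and 5 of 12 probes were called higher, beside 2.46% of all probes and 3.66% of named genes. Arrays without overlap with the 8 control horns were seen for 2 of 5 genes in hormone horns (PGK1 and PDK1; 3.85% of all probes) and for 2 of 5 in placebo horns (HIF1A and PGK1; 3.05%). The median difference over the 5 genes was 0.90 in hormone and 0.99 in placebo horns, where that over all named genes was 0.17 and 0.07. The choice of the 5 genes used these comparisons, so nothing is read from the counts or from these medians. Both comparisons use the same 8 control arrays.

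The call of LDHA in hormone horns was lost without gilt 9, 14 or 28, each a control animal, and with the horns of control gilts averaged. With slide as a term, LDHA and PGK1 were both lost. Only gilts 9 and 36 shared a slide, so that fit compared treated with control through 1 animal each. It therefore cannot weigh the calls. In placebo horns, no gene was called without gilt 9, 14, 28, 38 or 47, while 1 was called without gilt 41 and 4 without gilt 36. Without gilt 44 the call of HIF1A was lost there (0.83), and ADM, PGK1 and PDK1 were called. None was called there with control horns averaged, with the compared groups fitted alone, or with slide or horn mark as a term. Without the replicate block, that is with the horns of a gilt taken as independent, 4 genes were called in placebo horns. All 5 genes kept a positive difference in both comparisons in every alternative run.

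Arrays were scanned on 3 days, each with treated and control gilts. Within days 1, 2 and 3, the difference of hormone horns from controls was 2.65, 3.26 and 1.76 for ADM, 1.22, 0.93 and 0.52 for PGK1, and 1.34, 1.21 and 0.60 for LDHA. It was 0.87, 0.81 and 0.85 for PDK1 and 0.52, 0.27 and 0.41 for HIF1A. PDK1 was the most even of these over days, and no gene changed sign. For placebo horns, HIF1A stood 1.48, 0.75 and 0.74 above controls within the days and ADM stood 1.92, 2.39 and 1.40 above. PGK1 stood 0.53, 0.55 and 0.81 above, PDK1 0.27, 0.55 and 0.56, and LDHA 0.67, 1.47 and 0.97. With scan day as a term, the hormone horn differences were 0.37 for HIF1A, 2.66 for ADM, 0.89 for PGK1, 0.84 for PDK1 and 1.08 for LDHA. Only 1 slide, with gilts 9 and 36, held a control and a treated animal. On it, the hormone horn exceeded the control horns by 0.31, 1.98, 0.99, 1.06 and 1.13 for HIF1A, ADM, PGK1, PDK1 and LDHA, and the placebo horn by 1.02, 1.96, 0.46, 0.66 and 0.53.

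Markers of some cell types moved with the same groups; 12.7% of named genes were called higher in hormone horns and 3.66% in placebo horns. S100A8 and S100A9, abundant in neutrophils, were higher in hormone horns than in control gilts by 6.41 (adjusted p = 0.00361, limma) and 5.65 (adjusted p = 0.0045), and 3 of 5 neutrophil genes were called. In placebo horns 1 of 5 was called, S100A8 (4.34, adjusted p = 0.0457). PGLYRP1, another of the 5, had the opposite sign, -1.39 in hormone and -1.48 in placebo horns (adjusted p = 0.104 and 0.124, limma). Of 9 macrophage genes, 3 were called higher in hormone horns and 1 in placebo horns, with LYZ, which encodes lysozyme, at 2.54 and 2.66. Of 10 T and natural killer cell genes, 0 were called higher in either kind of horn (limma; 2 and 5 at an unadjusted p under 0.05). GZMB, a granzyme, was called lower in hormone horns (-0.94, adjusted p = 0.0104, limma). None of 3 B cell genes was called (limma, 0 at an unadjusted p under 0.05). Among 4 stroma genes, 1 was called higher in hormone horns and 0 in placebo horns (limma, 2 and 0 at an unadjusted p under 0.05). In each kind of horn 3 of the 4 had a positive difference. Of 4 endothelial genes 3 were called in hormone horns, VWF, ENG and CDH5, and 0 in placebo horns (3 at an unadjusted p under 0.05). EPCAM, CLDN4 and CDH1, 3 of 4 epithelial genes, were called higher in both kinds of horn, while KRT8, the fourth, had -0.33 and -0.16 (adjusted p = 0.37 and 0.707, limma). The placebo horn of gilt 44 had the lowest neutrophil median of the treated gilts, -0.75. It also had the lowest ADM (2.60) and PDK1 (-2.10) of all treated horns, with PGK1 at 3.85 and LDHA at 2.34. Its HIF1A was the highest at the brightest probe (1.63). At the second HIF1A probe it was the lowest of the placebo horns, at -0.78, below the highest control horn (-0.66). The placebo horn of gilt 47 had the highest neutrophil median, 7.67, and the highest ADM (4.35), PGK1 (4.63), PDK1 (-0.97) and LDHA (4.10) among placebo horns, with HIF1A at 1.46. Hormone horns had no single order. Among them, gilt 38 had the highest neutrophil median, 6.80, with the lowest PGK1 (3.59) and LDHA (2.25). Its ADM was 4.18, its PDK1 -1.30 and its HIF1A 0.19. Gilt 47 had a similar median, 6.70, with the highest LDHA (3.70), PDK1 (-0.80) and HIF1A (1.08) of the hormone horns. Its ADM was 4.33 and its PGK1 4.36. Gilt 44 had the lowest median among hormone horns, 2.05, with the highest PGK1 (4.70) and the lowest PDK1 (-1.31). Its ADM was 4.03, its LDHA 3.06 and its HIF1A 0.41. The part of these cell types in the differences of the 5 genes was not tested. With both horns of gilt 47 and the hormone horn of gilt 36 left out, 4 genes were called in hormone horns and 0 in placebo horns.

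**Figure D2:**
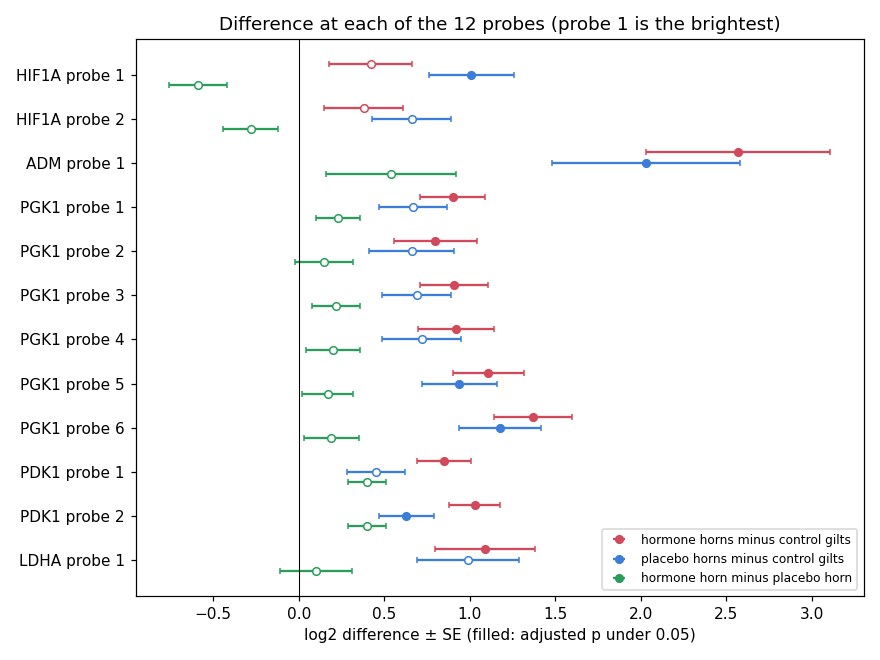
Differences at each of the 12 probes on the log2 scale, with bars of 1 SE, for hormone horns minus control gilts (red), placebo horns minus control gilts (blue) and hormone minus placebo horn (green). Filled points have an adjusted p under 0.05 over all probes. The 6 probes of PGK1 lie between 0.80 and 1.37 in hormone horns, and the 2 probes of HIF1A are the only ones with a hormone horn below the placebo horn.

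The horns of a treated gilt share the animal, the slide and the scan day. They differ in the infusion and, in every gilt with both horns, in the mark: P for hormone, L for placebo. Infusion and mark cannot be told apart within these gilts. The comparison of these horns uses the same hormone and placebo arrays as those against control gilts, so it is not independent of the choice of genes. No member was called: 0 of 5 genes passed (limma, 2 of 5 at an unadjusted p under 0.05), and over all probes 1 of 39091 did, 0.00256%. PDK1 was higher in the hormone horn by 0.40 ± 0.11 (SE, 1.32-fold; 95% interval 0.16 to 0.64; adjusted p = 0.265, limma). HIF1A was lower in the hormone horn, by a log2 difference of -0.59 ± 0.17 (95% interval -0.95 to -0.23; adjusted p = 0.278, limma). These 2 genes had the intervals that left out 0 at the brightest probe. At the second probe the interval was 0.17 to 0.63 for PDK1. For HIF1A it was -0.62 to 0.05 there, around a difference of -0.28, and so held 0. ADM differed by 0.54 ± 0.38 (-0.26 to 1.33; adjusted p = 0.615), PGK1 by 0.23 ± 0.13 (-0.05 to 0.51; adjusted p = 0.561) and LDHA by 0.10 ± 0.21 (-0.34 to 0.53; adjusted p = 0.867), all by limma. For ADM the interval still allows a 2-fold higher level in the hormone horn, so a difference of that size between the horns lies within the error.

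Gilt by gilt, PDK1 was higher in the hormone horn by 0.39, 0.41, 0.24, 0.80 and 0.18 in gilts 36, 38, 41, 44 and 47. HIF1A was lower there in the same gilts, with differences of -0.70, -0.28, -0.10, -1.22 and -0.38. Both directions held in 5 of 5 gilts and at both probes of each gene. Over all probes, 5.33% were higher and 2.4% were lower in the hormone horn of all 5 gilts. Gilt 44 had the widest step of PDK1 at both probes and of HIF1A at the brightest; at the second HIF1A probe it differed by -0.14, less than gilt 36 with -0.38. ADM differed by 0.03, 0.75, -0.38, 1.43 and -0.02 in these gilts, PGK1 by 0.53, -0.33, 0.34, 0.85 and -0.26, and LDHA by 0.60, -0.32, 0.02, 0.73 and -0.41. For these 3 genes the hormone horn was higher in 3 of 5 gilts. In gilts 38 and 47, PGK1 and LDHA were both lower in the hormone horn.

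In control gilts, where neither horn received hormones, the P horn differed from the L horn by -0.18 ± 0.20 (SE) for HIF1A, 0.02 ± 0.43 for ADM, 0.06 ± 0.15 for PGK1, 0.06 ± 0.13 for PDK1 and 0.06 ± 0.24 for LDHA. No gene and no probe of the array was called (0 of 39091, 0%; limma, 935 probes at an unadjusted p under 0.05, none of the 5 genes among them). Control gilts differed among themselves in sign: HIF1A differed by -0.54, 0.21, -0.41 and 0.02 in gilts 9, 14, 28 and 46, PDK1 by 0.38, -0.25, 0.16 and -0.04, and ADM by 0.24, 0.20, 1.12 and -1.51. The widest horn difference of ADM in any animal was thus in control gilt 46.

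Set against that background, no gene's horn difference passed a test between treated and control gilts. The mean for PDK1 was 0.40 ± 0.24 (SD, n = 5) in treated and 0.06 ± 0.27 (n = 4) in control gilts (exact permutation test over gilts, two-sided, p = 0.0714). For HIF1A it was -0.54 ± 0.44 and -0.18 ± 0.35 (exact permutation p = 0.238). ADM, PGK1 and LDHA had means of 0.36 ± 0.72, 0.23 ± 0.51 and 0.12 ± 0.52 in treated gilts and 0.02 ± 1.10, 0.06 ± 0.08 and 0.06 ± 0.18 in control gilts (exact permutation p = 0.611, 0.524 and 0.825). The smallest p that the possible splits of these 9 gilts allow is 0.00794, and the 5 values are unadjusted. Fitted by limma over all probes, the difference between the horn differences was -0.41 ± 0.26 (SE) for HIF1A and 0.34 ± 0.17 for PDK1, each with an adjusted p of 0.999. No probe was called (0%), while 1265 had an unadjusted p under 0.05, none of the 5 genes by its brightest probe among them. The second PDK1 probe was among them, at 0.43 (95% interval 0.09 to 0.78, adjusted p = 0.999, limma).

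**Figure D3:**
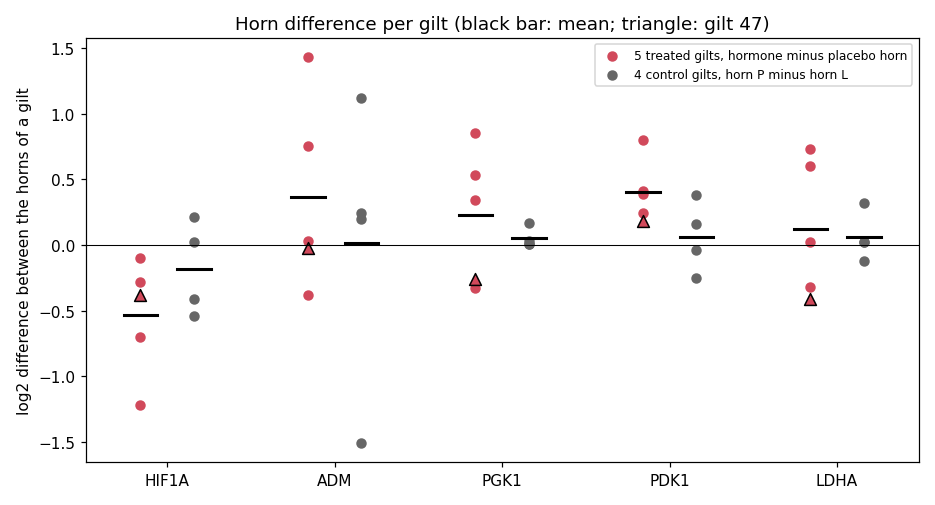
Difference between the horns of each gilt, in log2 units, for 5 treated gilts (red, hormone minus placebo horn) and 4 control gilts (grey, P minus L horn), with black bars for the means and triangles for gilt 47. HIF1A lies below 0 and PDK1 above 0 in all 5 treated gilts, while ADM, PGK1 and LDHA have both signs.

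Other enzymes of glycolysis were followed from a list of 23, of which 11 were measured. Beside the 12.7% of named genes called higher and the 2.46% called lower in hormone horns, 2 of 11 rose and 0 fell against control gilts: ENO3, a subunit of enolase, by 1.09 ± 0.27 (adjusted p = 0.0158) and GAPDH, glyceraldehyde-3-phosphate dehydrogenase, by 0.63 ± 0.19 (adjusted p = 0.0405, both limma). HK2, a hexokinase, differed by 1.67 ± 0.54 (adjusted p = 0.0521) and was well above background on 11 arrays. It ranged from 0.22 to 2.37 over 22 alternatives and passed in 5. The list's median difference was 0.41 in hormone horns and 0.13 in placebo horns, beside 0.17 and 0.07 over all named genes. ALDOC, an aldolase, had a negative difference in both kinds of horn, -0.49 and -0.81 (adjusted p = 0.286 and 0.115, limma). LDHB, the other main lactate dehydrogenase subunit, was named after its values were seen, and had 0.20 in hormone horns (-0.14 to 1.51 over the alternatives) and -0.14 in placebo horns (-0.39 to 1.10). In placebo horns 0 of 11 passed (limma; at an unadjusted p under 0.05, 2 were higher and 1 lower). GAPDH and TPI1 differed by 0.42 and 0.28 between hormone and placebo horn (adjusted p = 0.327 and 0.442, limma), and 9 of 11 had a positive sign there. The call of ENO3 was lost in 3 of 23 alternatives, among them leaving out control gilt 9 or 14, and that of GAPDH (0.49 to 0.98 over the alternatives; ranges beside the genes below are of the same kind) in 13 of 23, among them leaving out gilt 9, 14, 28, 46, 36, 44, 47 or 40.

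The counts of the next 3 lists also stand beside 12.7% of named genes called higher in hormone horns. Of 4 measured glucose and lactate transporters (12 listed), 1 rose in hormone horns, BSG, the chaperone of lactate transporters, by 0.90 ± 0.17 (adjusted p = 0.00524, limma). SLC16A1, a lactate transporter, had 0.57 (adjusted p = 0.0736). Of 8 measured genes of gluconeogenesis and glycogen (12 listed), 2 rose: PCK2, the mitochondrial phosphoenolpyruvate carboxykinase, by 1.36 ± 0.29 (adjusted p = 0.00737) and GYS1, glycogen synthase, by 0.52 ± 0.16 (adjusted p = 0.0422, both limma). PDHB was the 1 of 4 measured genes of the pyruvate dehydrogenase complex and its kinases (12 listed) that rose, by 1.06 ± 0.17 (adjusted p = 0.00242, limma). It encodes a subunit of the complex that PDK1 inhibits, so the transcripts of the kinase and of this subunit were both higher in hormone horns. PDHB passed in all 23 alternatives and BSG and PCK2 (0.73 to 1.53) in 22 each, whereas GYS1 (0.19 to 0.93) passed in 11 and was lost without gilt 9, 14, 28, 46, 36, 44 or 40. PDK4, another such kinase, had -0.45 (adjusted p = 0.482). In placebo horns 0 of these 16 genes passed (limma; 6 at an unadjusted p under 0.05), with BSG and PDHB both at 0.62 (adjusted p = 0.0525 and 0.0527).

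Of the listed subunits and regulators of hypoxia-inducible factor, 5 of 19 were measured and 0 passed in any of these comparisons (limma; in hormone horns 1 of 5 at an unadjusted p under 0.05, in placebo horns 0). EPAS1, which encodes the other main alpha subunit, had 0.21 in hormone horns and 0.19 in placebo horns (adjusted p = 0.543 and 0.605). Of its other known target genes, 15 of 26 were measured. In hormone horns 3 of 15 rose, beside 12.7% of named genes: FLT1, a receptor for vascular endothelial growth factor, by 1.30 ± 0.26 (adjusted p = 0.00605), LOX, which cross-links collagen, by 1.02 ± 0.30 (adjusted p = 0.0363), and PLIN2, a lipid droplet protein, by 0.61 ± 0.19 (adjusted p = 0.0458, all limma). FLT1 (0.84 to 1.42) passed in 22 of 23 alternatives, LOX in 12 and PLIN2 in 9. LOX was lost without gilt 9, 14, 28, 36, 38, 47 or 40, and PLIN2 without gilt 9, 14, 28, 46, 36, 41, 44, 47 or 40. VEGFA, a classical target that was also named after its values were seen, had 0.36 (adjusted p = 0.543). The median was 0.61 in hormone and 0.39 in placebo horns, and 14 and 13 of the 15 were positive. None of the 15 passed in placebo horns (limma; 6 at an unadjusted p under 0.05), with PLIN2 at 0.69 and FLT1 at 0.93 (adjusted p = 0.0515 and 0.0535).

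For adrenomedullin's own pathway, 9 of 13 listed genes were measured. Its receptors are CALCRL joined with RAMP2 or RAMP3, accessory proteins of the same family as RAMP1. RAMP1 rose in hormone horns by 1.26 ± 0.31 (adjusted p = 0.0171) and RAMP2 by 0.53 ± 0.17 (adjusted p = 0.0477), 2 of 9 beside 12.7% of named genes, while RAMP3 had 0.03 and CALCRL had 0.51 (adjusted p = 0.261, all limma). RAMP1 (1.03 to 2.31) passed in 18 of 23 alternatives and was lost without control gilt 9, 14 or 28. RAMP2 passed in 9 and was lost without gilt 9, 14, 28, 44, 47 or 40. ACKR3, a scavenger receptor for adrenomedullin and chemokines, had -0.75 (adjusted p = 0.077). Between the horns of treated gilts, ACKR3 was lower in the hormone horn by a log2 difference of -0.99 ± 0.19 and RAMP1 differed by 0.83 ± 0.22, neither past the threshold (adjusted p = 0.0829 and 0.225, limma). In placebo horns 0 of 9 passed (limma; 1 at an unadjusted p under 0.05).

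**Figure D4:**
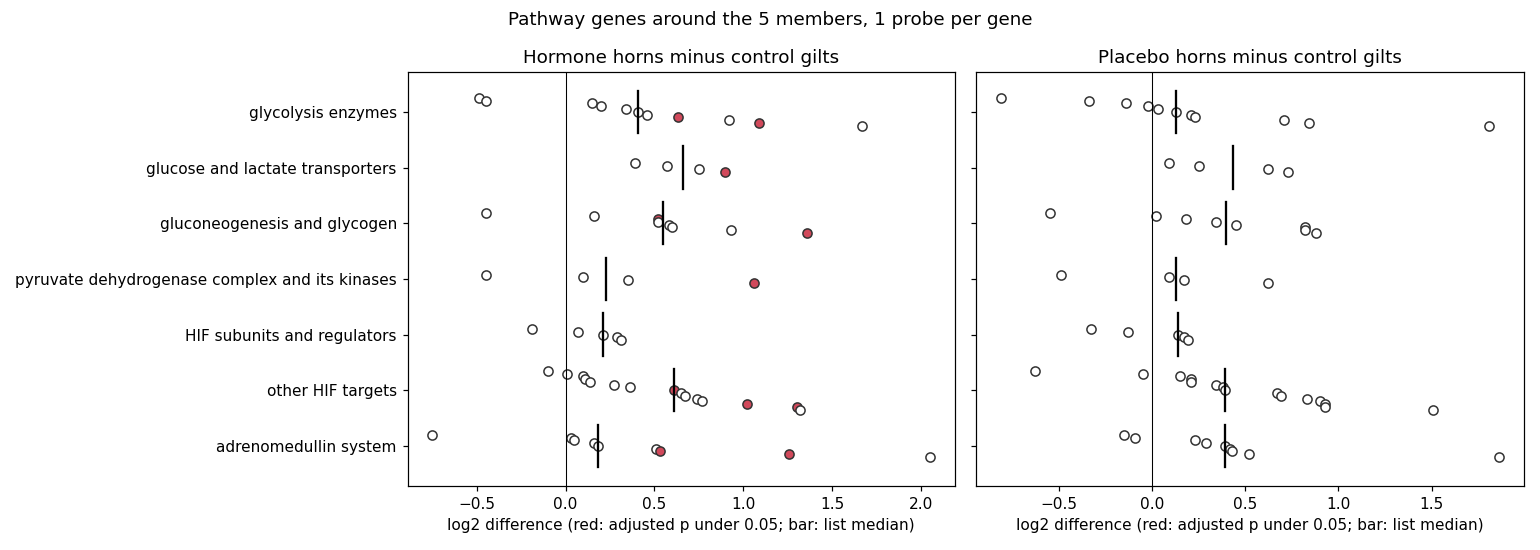
Differences from control gilts of the measured genes of each pathway list, 1 point per gene, in log2 units, for hormone horns (left) and placebo horns (right). Red points have an adjusted p under 0.05 and black bars are list medians. In hormone horns 11 genes are red, and in placebo horns none is.

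The genes with the profiles most like each member over the 19 arrays were ranked by the root mean square difference of log2 values, each centred on its own mean, over 2947 other named genes. For HIF1A, whose own root mean square deviation was 0.572, they were CHUK (0.263), PAPOLA (0.286) and M6PR (0.294). For ADM (1.41) they were PSAP (0.603), MUC4 (0.649) and HCRTR1 (0.668). For PGK1 (0.479) they were ARL1 (0.145), UBE2J1 (0.148) and DKC1 (0.158). For PDK1 (0.433) they were DNASE1L1 (0.183), SLC12A4 (0.201) and VWF (0.217), the last an endothelial marker. For LDHA (0.731) they were IFNGR2 (0.279), DNAJB11 (0.282) and DNAJC3 (0.297). No member was among the nearest 3 of another.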

How the data were processed

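RNA was extracted with TRIzol and hybridised, after Cy3 labelling, to one-colour Agilent arrays (per the labels' protocols). The deposited intensity values (processed signal) came, per the file headers, from Agilent Feature Extraction 10.7.3.1, which had subtracted background within each array; the submitters' processing notes name version 9.1. The authors' deposited value table holds log2 values of the same arrays (r of 0.996 to 0.999 with the scanner values, column medians 7.72 to 7.83) and served as an alternative. No coordinates are printed, since the sources used here name no genome build.

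Control spots and outlier-flagged spots were left out, log2 intensity was taken minus each array's 75th percentile (597.5 to 983.1), and spots of a probe were averaged. Probes had to be well above background on at least 4 arrays. Of 43603 probes, 6768 carried 1 RefSeq gene with a symbol. Groups were fitted together with limma 3.58.1 in R 4.3.3 (lmFit, eBayes with trend), with gilt as a random block (within-gilt correlation 0.536) and Benjamini-Hochberg adjustment over 39091 probes. Differences come from this fit, so gilt 40, which has no placebo horn, also weighs in; they can depart slightly from differences of group means. Horns of a gilt come from the same animal, per the labels. Deviations from group means correlated by 0.336 to 0.795 within 5 treated gilts and 0.403 to 0.628 within 4 control gilts, against at most 0.144 and 0.0188 between gilts.

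The 5 genes, the pathway lists and the marker lists were chosen with earlier results of these data known. All 5 genes were described at every probe. From each pathway list, up to 3 genes of smallest adjusted p in each comparison could be named, and the 3 nearest genes of each member; marker genes were named after their values were seen. Alternatives were quantile normalization, normexp background correction (offset 50), filters, blocks, batch terms, the value table, other probes and leaving out each gilt. The number of arrays limits the precision. The scripts were tested on simulated data. The result of 1 listed gene is not reported here.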

Additional observations from a re-analysis of the deposited data

Results flagged for a closer look

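In 20 sets of arrays (5 genes in 4 groups), the highest and lowest array were compared with the others by Dixon's test, which flags about 1 in 20 groups by chance; 2 sets stood out, both of PGK1. In the P horns of control gilts, PGK1 was 3.55 in gilt 46, while the other 3 lay between 3.27 and 3.28. The gap was 0.944 of the group's range, above the critical value of 0.829. In the placebo horns of treated gilts, PGK1 was 4.63 in gilt 47, while the other 4 lay between 3.72 and 3.91 (0.788 of the range, critical value 0.71). Gilt 47 also had the highest macrophage and neutrophil medians among placebo horns.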

How the results depend on the processing

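Of the 5 genes, 4 were called in hormone horns and 2 in placebo horns against control gilts. Slide as a term compared treated with control animals through gilts 9 and 36 alone, so its calls carry no weight here. In hormone horns the count was 3 to 4 on leaving out 1 gilt. In placebo horns it was 4 with no replicate block, 1 with the other HIF1A probe, and 0 to 4 on leaving out 1 gilt. It was 0 there with control horns averaged, with the compared groups alone, with slide or horn mark as a term, and without gilt 47 and 1 horn of gilt 36, the last chosen after seeing the data. Quantile normalization lost ADM and gained PGK1 (0.60). PGK1 was also gained in placebo horns with normexp, with the value table and at 2 of its other probes. Leaving out 1 gilt, HIF1A in placebo horns ranged from 0.83 to 1.11 and ADM from 1.76 to 2.33. The counts for hormone against placebo horn, P against L horn and their difference were 0 in every alternative, and gilt as a fixed replicate block changed no call of the 5 genes there.

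Signs turned only in comparisons with 0 genes called. Leaving out 1 gilt, LDHA ranged from -0.06 to 0.24 between hormone and placebo horn, and the P against L difference from -0.35 to 0.52 for ADM, -0.05 to 0.17 for PDK1 and -0.03 to 0.12 for LDHA. The other probes gave -0.05, -0.09 and -0.22 for PGK1 and -0.04 for PDK1. For treated minus control horn differences, LDHA was -0.01 in the value table and -0.11 to 0.18 on leaving out 1 gilt; per gilt it was -0.09 to 0.20, and ADM was -0.16 to 0.72. The cause was not tested.

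Over all probes, 4553 were called in hormone horns, 6972 without the block, 2191 with control horns averaged, and 1753, 1454, 1624 and 2873 without gilts 9, 14, 28 and 44. In placebo horns 1728 were called, 3570 without the block, 93 with control horns averaged, 14 with the compared groups alone and 14 with horn mark as a term. There, 429 were called without gilt 47 and 1 horn of gilt 36, and 0 to 3294 on leaving out 1 gilt (0 without gilt 28). Between hormone and placebo horn, 1 became 34 with quantile normalization (12 higher, 22 lower), 16 with a fixed block or slide, 5 with scan day, 0 to 16 on leaving out 1 gilt (16 without gilt 47), 4 without the hormone horn of gilt 36 and 21 with gilt 47 left out as well. Normexp moved the median of all probes there from 0.06 to -0.05; no other alternative moved it by 0.1 in any comparison. Not run were normexp on mean signals (median signals were used instead, chosen after seeing the data), a fixed block against control gilts, where gilt and group coincide, and horn mark in control gilts.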
